A study of Rattus norvegicus with 8 samples.

Results

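The prostaglandin-synthesizing genes and phospholipases A2 described here are 8 genes, found by NCBI GeneID among the 22601 genes with a value in each library of the series: the cyclooxygenases *Ptgs1* and *Ptgs2*, the prostaglandin synthases *Ptges*, *Ptges2* and *Ptgds*, and the phospholipases A2 *Pla2g4a*, *Pla2g3* and *Pla2g1b*. They were chosen by name and function, and all 8 had a mean FPKM (fragments per transcript, scaled by its length and by the mapped fragments of the library) of at least 0.1 and were tested. RNA of the hippocampus of wild type Wistar rats weighing 180 to 220 g was sequenced, with 1 library per rat: 3 vehicle controls (Con.), 3 rats of the PTZ group and 2 treated with Q808 after kindling. PTZ (pentylenetetrazole), an antagonist of GABA-A receptors, kindles rats when given repeatedly below the seizure threshold, and Q808 is a tetrazolophthalazine with anti-convulsant action. PTZ and Q808 rats were injected with 35 mg/kg PTZ every 48 h over 28 days (14 injections) and with 60 mg/kg on the last day, while Con. rats got saline. The labels give no age. Over the following 28 days, Q808 rats were gavaged daily with 30 mg/kg Q808 and the rats of the other groups with its solvent. A further sub-convulsive PTZ injection was given to the PTZ and Q808 rats, and not to the Con. rats, on the day after dosing ended, and tissue was taken after the seizures had been scored, so that kindling and this last injection cannot be told apart in comparisons with Con.

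Prostaglandins are made in successive steps. Phospholipases A2 cut arachidonic acid from membrane phospholipids, cyclooxygenases turn it into the unstable prostaglandin H2, and terminal synthases convert that into prostaglandin E2, prostaglandin D2 and other products, which act through G protein-coupled receptors. In the brain, *Ptgs2* is an immediate-early gene of excitatory neurons that responds to synaptic activity, while *Ptgds* is made mainly by oligodendrocytes, leptomeninges and choroid plexus.

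3 of the libraries stood apart in the tissue they contained. Con.-3, PTZ-3 and Q808-1 had summed FPKM of 849 to 1825 over 8 striatum markers, against 65.1 to 91.0 in the other 5 libraries, and 25.5 to 28.3 over 7 markers of dentate granule cells, against 92.0 to 135. Their oligodendrocyte markers summed to 6963 to 13758 FPKM, against 2681 to 4463. *C1ql2* made up most of the dentate sum in the other 5 libraries, and not every dentate marker followed that sum. *Prox1*, *C1ql2*, *Lct* and *Trpc6* were lower in all 3 libraries than in the other 5, while *Plk5*, *Rfx3* and *Dsp* overlapped. *Plk5* was at 9.23 FPKM in Con.-3 and 12.6 in Q808-1, and at 4.85 and 3.80 in PTZ-1 and PTZ-2. The labelled hippocampus was thus marked less clearly in these 3 libraries, and since each group holds 1 of them, the differences of the 8 genes are given with all libraries and also within the 5 and within the 3. Within the 5, the Q808 group is the single library Q808-2, which limma takes to vary like the others, and within the 3 each group is 1 library and there is no test. In bulk tissue, fewer cells of a type and less RNA per cell cannot be told apart. Spearman correlations between libraries over all genes lay between 0.966 and 0.986.

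The 250 bases before the start of 3 genes are shown because arachidonate release, cyclooxygenation and prostaglandin E2 formation follow each other and each of these genes had its highest library in the PTZ group. The RefSeq promoter table (GRCr8) held 6 of the 8 genes. Sequences run 5′ to 3′ on the gene's strand, and capitals mark matches, on either strand, to 6 motifs: the TATA box (TATAAA), an E-box (CACGTG), the CRE half-site (TGACG), the GC box (GGGCGG), AP-1 (TGANTCA) and EGR1 (GCGNGGGCG). None of these motifs contains another, but the EGR1 motif ends with the letters that begin the GC box, so that these can overlap.
*Ptgs2*, chr13:64713813-64714062, plus strand: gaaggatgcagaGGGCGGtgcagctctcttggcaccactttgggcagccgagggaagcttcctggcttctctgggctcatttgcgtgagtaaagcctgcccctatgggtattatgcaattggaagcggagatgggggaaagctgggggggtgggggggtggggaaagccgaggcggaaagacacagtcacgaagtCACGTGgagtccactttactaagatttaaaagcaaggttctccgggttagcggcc
*Ptges*, chr3:34586988-34587237, minus strand: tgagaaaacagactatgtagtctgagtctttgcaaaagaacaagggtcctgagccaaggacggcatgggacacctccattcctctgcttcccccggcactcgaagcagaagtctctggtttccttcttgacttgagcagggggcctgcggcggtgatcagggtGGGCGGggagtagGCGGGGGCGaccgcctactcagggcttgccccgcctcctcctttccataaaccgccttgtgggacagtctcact
*Pla2g4a*, chr13:64572353-64572602, minus strand: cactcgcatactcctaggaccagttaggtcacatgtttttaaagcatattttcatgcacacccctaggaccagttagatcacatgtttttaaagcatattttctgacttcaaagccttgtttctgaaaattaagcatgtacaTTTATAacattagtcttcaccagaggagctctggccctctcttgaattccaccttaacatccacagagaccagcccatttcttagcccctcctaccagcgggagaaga
The *Ptgs2* window held a GC box at positions -238 to -233 and the E-box at -55 to -50, counted back from the start. The *Ptges* window held a GC box at -87 to -82 and the EGR1 motif at -74 to -66. In the *Pla2g4a* window the single match was the TATA box on the reverse strand, at -108 to -103. Of 33469 promoter windows of this length, 30.5% held the GC box, 12.9% the TATA box, 5.59% the E-box and 4.29% the EGR1 motif, while the CRE half-site and AP-1, with no match in these 3 windows, were in 18.2% and 6.34%. *Pla2g4a* and *Ptgs2* lie close together on chromosome 13, with 2 annotated genes between them, neither protein-coding. These matches are a description of the letters and not of bound sites.

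In Con. hippocampus, the level per length differed widely among the 8 genes. *Ptgds* was at 359 to 657 FPKM, a mean above that of 99.6% of tested genes, followed by *Ptges2* at 15.9 to 19.7 and *Ptgs2* at 6.32 to 14.8. *Ptgs1* was at 1.93 to 2.59, *Pla2g4a* at 1.41 to 1.90 and *Pla2g3* at 0.989 to 1.496, and *Ptges* at 0.728 to 0.802 and *Pla2g1b* at 0.574 to 0.650 were lowest. Among neighbours in this order, *Pla2g4a* and *Pla2g3* overlapped and the other ranges did not. In the PTZ group *Ptgs2* moved between *Ptgds* and *Ptges2* by its mean, but its range overlapped that of *Ptges2*.

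**Figure D1:**
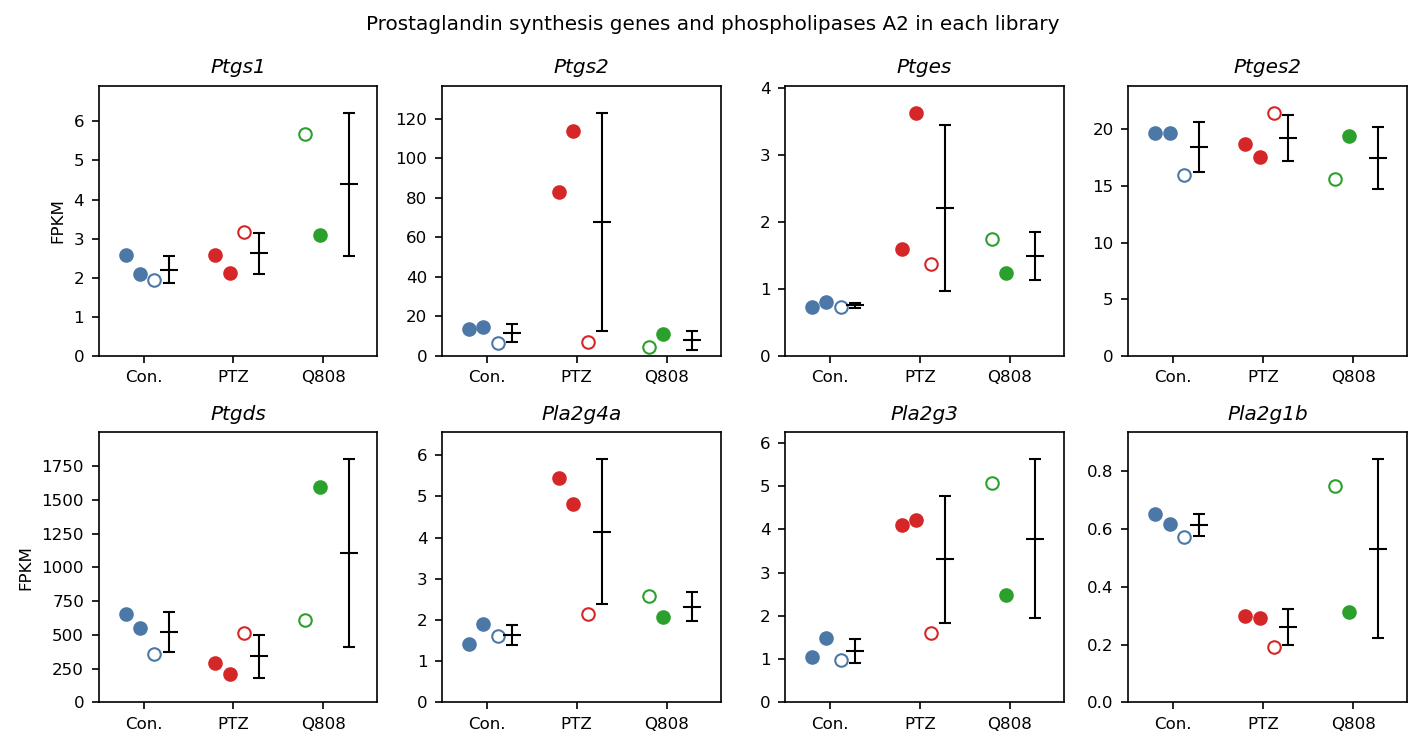
FPKM of each of the 8 genes (y axis, from 0, a scale of its own in each panel) in the Con., PTZ and Q808 groups (x axis). Each point is 1 library, open points are Con.-3, PTZ-3 and Q808-1, which had high striatum markers, and bars are the group mean ± SD (n = 3, 3 and 2). *Ptgs2* stood at 82.8 and 114 FPKM in PTZ-1 and PTZ-2 and at 14.8 or less in the other 6 libraries.

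Between the PTZ and Con. groups, which differ in kindling and in the last PTZ injection together, *Ptges*, *Pla2g4a* and *Pla2g3* were higher and *Pla2g1b* was lower. A call required, in limma, a p below 0.05 before adjustment and more than 1.5-fold change. By that rule 4 of 8 genes were called, against 2.53% of all 15593 tested genes. The 3 higher genes stand beside 1.69% of all genes called higher, and the 1 lower gene beside 0.84% called lower. Their groups did not overlap, which held for 9.15% of all tested genes. After Benjamini-Hochberg adjustment over all tested genes, 0 of the 8 had an adjusted p under 0.05 (limma, 0.999 for each), and 4 had an unadjusted p under 0.05. The median log2 fold change was 0.71 over the 8 genes and -0.04 over all tested genes.

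Between the Q808 and PTZ groups, which both got PTZ and differ in the drug, *Ptgds* was the 1 gene of 8 called. It was higher, against 1.92% of all tested genes called (1.36% higher and 0.564% lower). The study reported a lower seizure score and a longer latency in Q808 rats after the last PTZ injection. Drug dosing and milder seizures just before tissue was taken therefore cannot be told apart in this comparison. *Ptgds* and *Pla2g1b* had groups that did not overlap, 2 of 8 against 15.6% of all. Between the Q808 and Con. groups, *Pla2g3*, *Ptges* and *Ptgs1* were called, all higher, 3 of 8 against 3.46% of all (3.07% higher and 0.391% lower). Those 3 and *Pla2g4a* did not overlap between the groups, 4 of 8 against 20% of all. No gene of the 8 had an adjusted p under 0.05 (limma, smallest 0.952 and 0.901), and 1 and 3 had an unadjusted p under 0.05. The median log2 fold change was 0.04 against 0.10 over all tested genes for Q808 against PTZ, and 0.68 against 0.04 for Q808 against Con. The PTZ libraries serve both comparisons that involve PTZ and the Con. libraries both that involve Con., so the comparisons are not independent. Terms for the libraries raised the background as well. No Q808 library is numbered 3, so the replicate block leaves PTZ-3 and Con.-3 out of the differences with Q808. With the replicate number as a block, 5, 4 and 3 of the 8 genes were called in the 3 comparisons in this order, beside 3.95%, 12.1% and 6.9% of all genes. With the set of high or low striatum markers as a term these were 5, 2 and 2, beside 4.31%, 4.58% and 4.86%, and in the 5 libraries alone 6, 3 and 2, beside 9.82%, 10.4% and 4.53%.

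**Figure D2:**
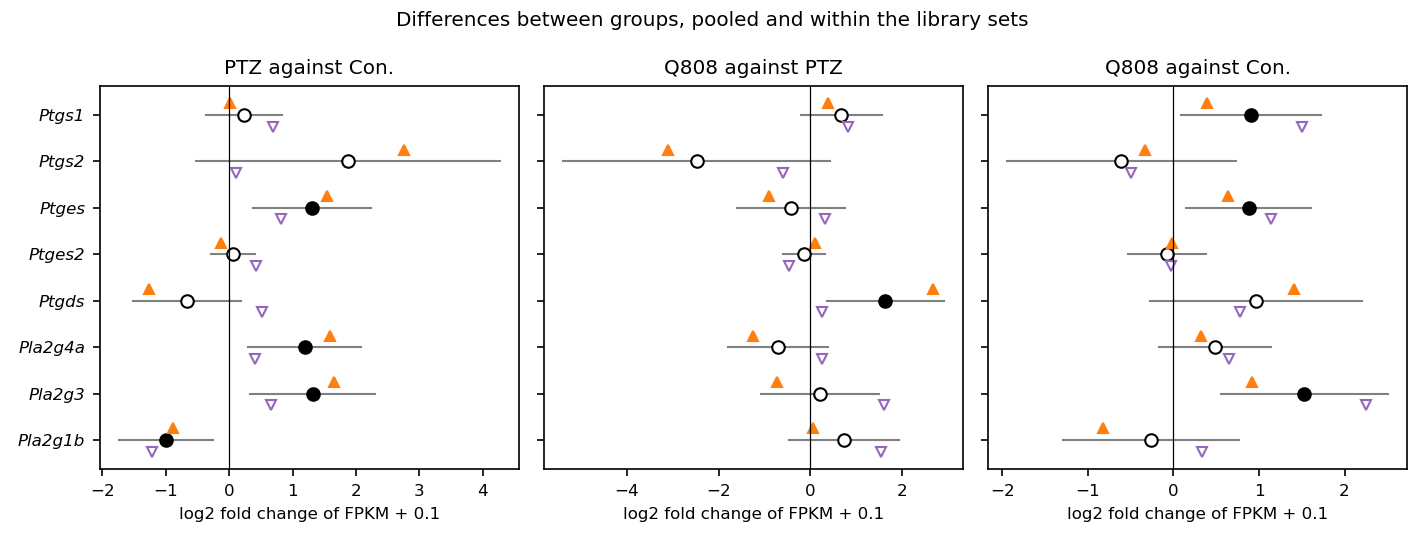
log2 fold change of FPKM + 0.1 (x axis) for each gene (y axis) in the 3 comparisons, 1 per panel, each with its own x range. Circles with lines are the limma estimate from all libraries and its 95% confidence interval, filled where called. Orange filled triangles are the difference within the 5 libraries with low striatum markers, and purple open triangles that within the 3 libraries with high ones (1 library a group). For *Ptgds* in PTZ against Con., the first is at -1.26 and the second at 0.52.

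*Pla2g4a* (GeneID 24653) encodes the cytosolic, calcium-dependent phospholipase A2 that prefers arachidonate. It was at 1.41, 1.90 and 1.60 FPKM in Con.-1, Con.-2 and Con.-3, at 5.46, 4.82 and 2.15 in PTZ-1, PTZ-2 and PTZ-3, and at 2.57 and 2.08 in Q808-1 and Q808-2. PTZ-1 and PTZ-2 stood above every other library, and PTZ-3 lay just above the highest Con. library. The mean was 1.64 ± 0.246 in Con. (SD, n = 3), 4.14 ± 1.76 in PTZ (n = 3) and 2.33 ± 0.349 in Q808 (n = 2). *Pla2g4a* rose by 1.19 on the log2 scale in PTZ against Con. (SE 0.38, limma unadjusted p = 0.0159), with 1.59 within the 5 libraries and 0.40 within the 3. Without Con.-1, PTZ-1 or PTZ-2 the difference was 1.10, 0.95 and 1.03 and no longer called. Against PTZ, Q808 differed by -0.71 (95% CI -1.80 to 0.38), with the groups overlapping. This difference had opposite signs within the sets, -1.26 within the 5, where it was called (limma unadjusted p = 0.0049), and 0.25 within the 3, and it was called at -1.12 without PTZ-3. Against Con., Q808 differed by 0.48 (95% CI -0.17 to 1.14; 0.33 within the 5 and 0.65 within the 3).

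*Pla2g3* (GeneID 289733) encodes a secreted phospholipase A2 of group III. Its FPKM was 1.06, 1.496 and 0.989 in Con.-1 to Con.-3, 4.09, 4.22 and 1.61 in PTZ-1 to PTZ-3, and 5.08 and 2.48 in Q808-1 and Q808-2. All rats injected with PTZ, with or without Q808, were above all Con. rats, but PTZ-3 at 1.61 was only just above Con.-2 at 1.496. The share of all tested genes that separate these rats in this way was not counted. The highest library was Q808-1. The mean was 1.18 ± 0.274 in Con. (SD, n = 3), 3.31 ± 1.47 in PTZ (n = 3) and 3.78 ± 1.84 in Q808 (n = 2). It rose by 1.32 on the log2 scale in PTZ against Con. (SE 0.42, limma unadjusted p = 0.0156; 1.65 within the 5 libraries and 0.65 within the 3). Without PTZ-1 or PTZ-2 this was 1.11 and 1.09 and not called. *Pla2g3* also rose by 1.53 in Q808 against Con. (SE 0.39, limma unadjusted p = 0.0091; 0.92 within the 5 and 2.25 within the 3), and it was not called without Q808-1, at 1.03. Q808 against PTZ gave 0.22 (95% CI -1.07 to 1.51), positive within the 3 libraries (1.59) and negative within the 5 (-0.72).

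*Pla2g1b* (GeneID 29526), the secreted phospholipase A2 known from pancreatic juice, was the weakest of the 8. It was at 0.650, 0.616 and 0.574 FPKM in Con.-1 to Con.-3, 0.301, 0.293 and 0.190 in PTZ-1 to PTZ-3, and 0.750 and 0.314 in Q808-1 and Q808-2. The Con. libraries were close together and all above the PTZ libraries, while Q808-2 was near the PTZ level and Q808-1 was the highest of all. The mean was 0.614 ± 0.038 in Con. (SD, n = 3), 0.261 ± 0.062 in PTZ (n = 3) and 0.532 ± 0.309 in Q808 (n = 2). *Pla2g1b* fell by 1.00 on the log2 scale in PTZ against Con. (SE 0.31, limma unadjusted p = 0.0156), and the difference was -0.89 within the 5 libraries and -1.21 within the 3. Without Con.-1 or Con.-2 it was -0.96 and -0.99 and not called, and a pseudocount of 1 in place of 0.1 reduced it to -0.36, also not called. Q808 differed from PTZ by 0.73 (95% CI -0.46 to 1.92), with 0.060 within the 5 and 1.55 within the 3. It differed from Con. by -0.27 (95% CI -1.29 to 0.76), with opposite signs within the sets, -0.83 and 0.34. Read counts were not used here, so the counting error of such a low level is unknown.

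*Ptgs2* (GeneID 29527) encodes cyclooxygenase-2, the inducible enzyme, and had the widest spread, 25.6-fold between the highest and lowest library. It was at 13.7, 14.8 and 6.32 FPKM in Con.-1, Con.-2 and Con.-3, at 82.8, 114 and 6.80 in PTZ-1, PTZ-2 and PTZ-3, and at 4.46 and 11.3 in Q808-1 and Q808-2. PTZ-1 and PTZ-2 were far above all other libraries, whereas PTZ-3 was below Con.-1 and Con.-2, so the PTZ and Con. groups overlapped. The mean was 11.6 ± 4.61 in Con. (SD, n = 3), 67.9 ± 55.2 in PTZ (n = 3) and 7.87 ± 4.81 in Q808 (n = 2).

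With all libraries and no term beside the group, *Ptgs2* was not called in any comparison. The log2 fold change was 1.88 in PTZ against Con. (SE 1.01, 95% CI -0.52 to 4.27, limma unadjusted p = 0.106). Q808 against PTZ gave -2.48 (SE 1.20, 95% CI -5.39 to 0.43, limma unadjusted p = 0.0824), and Q808 against Con. gave -0.61 (95% CI -1.94 to 0.73; -0.33 within the 5 libraries and -0.49 within the 3). With the library set as a term, in a fit that also holds the third group, it was called in 2 comparisons. These were PTZ against Con. (1.88, limma unadjusted p = 0.0058) and Q808 against PTZ (-2.12, limma unadjusted p = 0.0057). With the replicate number as a block it was called in all 3 comparisons, at 1.88, -3.76 and -0.99 (limma unadjusted p = 0.0136, 8.3e-05 and 0.0364). No Q808 library is numbered 3, so in the comparisons with Q808 the block leaves PTZ-3 or Con.-3 out of the difference. The values -3.76 and -0.99 are therefore those without PTZ-3 and without Con.-3, and not a separate result. Same-numbered libraries deviated together in PTZ against Con. and not in both pairs of the comparisons with Q808. Since Con.-3 and PTZ-3 share high striatum markers, the former cannot show that the numbers pair the rats. Exact permutation tests, two-sided, gave p = 0.3, 0.4 and 0.4, where the smallest possible p is 0.1, 0.2 and 0.2.

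In PTZ against Con., *Ptgs2* was called when PTZ-3, 1 of the libraries with high striatum markers, was left out. It was not called with any other single library left out. *Ptgs2* levels did not overlap between the 3 libraries with high striatum markers, at 4.46 to 6.80 FPKM, and the other 5, at 11.3 to 114. It was the 1 gene of the 8 with such a separation. Such a separation was found for 24.8% of all tested genes. Within the 5 libraries, PTZ exceeded Con. by 2.76 on the log2 scale and Q808-2 differed from PTZ by -3.10, with limma adjusted p = 0.00798 and 0.0105 over all tested genes. Over all alternatives, the adjusted p ranged from 0.00798 to 1.00 and from 0.0105 to 1. The second of these rests on Q808-2 as the only Q808 library. Within the 3 libraries the same differences were 0.10 and -0.60. Without PTZ-3 alone, they were called at 3.15 and -3.76, the latter being also the value of the replicate block. Without Con.-3, which had high striatum markers too, PTZ against Con. was 1.49. The part of tissue content in these differences was not tested.

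*Ptgs1* (GeneID 24693), cyclooxygenase-1, is the constitutive enzyme and in brain is found mainly in microglia. Its FPKM was 2.59, 2.09 and 1.93 in Con.-1 to Con.-3, 2.57, 2.13 and 3.17 in PTZ-1 to PTZ-3, and 5.68 and 3.09 in Q808-1 and Q808-2. Both Q808 libraries were above all Con. libraries, Q808-1 by far the most, and PTZ overlapped both other groups. The mean was 2.20 ± 0.341 in Con. (SD, n = 3), 2.63 ± 0.525 in PTZ (n = 3) and 4.39 ± 1.83 in Q808 (n = 2). *Ptgs1* rose by 0.91 on the log2 scale in Q808 against Con. (SE 0.33, limma unadjusted p = 0.0355; 0.40 within the 5 libraries and 1.51 within the 3). The call was lost without Con.-1, Con.-2, Con.-3 or Q808-1, at 1.02, 0.88, 0.82 and 0.48. PTZ differed from Con. by 0.23 (95% CI -0.36 to 0.83; 0.0077 within the 5 and 0.69 within the 3). Q808 differed from PTZ by 0.67 (95% CI -0.21 to 1.56; 0.39 and 0.82), called at 1.10 without Q808-2.

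Markers of microglia moved with *Ptgs1*. The 8 microglia markers, none of them at 0 in any library, summed to 107 to 117 FPKM in Con., 103 to 162 in PTZ and 232 and 132 in Q808-1 and Q808-2, highest in the same library as *Ptgs1*. The 7 endothelial markers, none at 0, summed to 83.9 to 89.1, 66.0 to 159 and 182 and 99.3. Their part in the *Ptgs1* result was not tested.

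The balance of the cyclooxygenases varied with both genes, and it was highest in PTZ-1 and PTZ-2, the libraries with the most *Ptgs2*. The ratio of *Ptgs2* to *Ptgs1* FPKM was 5.30, 7.07 and 3.27 in Con.-1 to Con.-3, 32.2, 53.6 and 2.14 in PTZ-1 to PTZ-3, and 0.786 and 3.64 in Q808-1 and Q808-2. *Ptgs2* exceeded *Ptgs1* in 7 of 8 libraries, Q808-1 being the exception. Q808-1 had both the lowest *Ptgs2*, at 4.46 FPKM, and the highest *Ptgs1*, at 5.68. PTZ-3 had more *Ptgs2* than Con.-3 (6.80 and 6.32 FPKM) but a lower ratio, with *Ptgs1* at 3.17 and 1.93. Exact two-sided permutation tests of the log2 ratio gave p = 0.4 in each of the 3 comparisons, also 0.4 after adjustment over them, with 0.1, 0.2 and 0.2 the smallest p possible.

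*Ptges* (GeneID 59103), the inducible microsomal prostaglandin E synthase that is coupled to cyclooxygenase-2, was at 0.728, 0.802 and 0.734 FPKM in Con.-1 to Con.-3, at 1.61, 3.63 and 1.38 in PTZ-1 to PTZ-3, and at 1.74 and 1.24 in Q808-1 and Q808-2. The 5 rats injected with PTZ were all above the 3 Con. rats, which lay close together. How many of all tested genes show such a separation was not counted. The mean was 0.755 ± 0.041 in Con. (SD, n = 3), 2.20 ± 1.24 in PTZ (n = 3) and 1.49 ± 0.355 in Q808 (n = 2). *Ptges* rose by 1.31 on the log2 scale in PTZ against Con. (SE 0.40, limma unadjusted p = 0.0130), with 1.55 within the 5 libraries and 0.82 within the 3, and it was called with any single library left out. It also rose by 0.88 in Q808 against Con. (SE 0.29, limma unadjusted p = 0.0259; 0.64 and 1.14 within the sets), a call lost without Con.-1, Con.-2, Con.-3 or Q808-1, at 0.86, 0.92, 0.86 and 0.65. Q808 against PTZ gave -0.42 (95% CI -1.61 to 0.76), negative within the 5 (-0.91) and positive within the 3 (0.32).

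*Ptges2* (GeneID 311865), the membrane-associated prostaglandin E synthase-2, varied least, 1.38-fold between the highest and lowest library. It was at 19.7, 19.7 and 15.9 FPKM in Con.-1 to Con.-3, 18.7, 17.5 and 21.4 in PTZ-1 to PTZ-3, and 15.6 and 19.4 in Q808-1 and Q808-2. All groups overlapped. The differences were 0.06 in PTZ against Con. (95% CI -0.29 to 0.41), -0.14 in Q808 against PTZ (95% CI -0.60 to 0.33) and -0.08 in Q808 against Con. (95% CI -0.53 to 0.38), so that a change beyond 1.5-fold lies outside the first and the last of these intervals and just inside the lower end of the other. Within the 5 libraries they were -0.12, 0.10 and -0.019, and within the 3 they were 0.43, -0.46 and -0.033, so that the sign of PTZ against Con. and of Q808 against PTZ differed between the sets.

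*Ptgds* (GeneID 25526), the lipocalin-type prostaglandin D synthase, was at 657, 550 and 359 FPKM in Con.-1, Con.-2 and Con.-3, at 293, 214 and 517 in PTZ-1, PTZ-2 and PTZ-3, and at 614 and 1595 in Q808-1 and Q808-2. Both Q808 libraries were above the PTZ libraries, Q808-2 above all others, and PTZ-1 and PTZ-2 were lowest. The mean was 522 ± 151 in Con. (SD, n = 3), 341 ± 157 in PTZ (n = 3) and 1105 ± 694 in Q808 (n = 2).

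*Ptgds* rose by 1.63 on the log2 scale in Q808 against PTZ (SE 0.53, 95% CI 0.36 to 2.91, limma unadjusted p = 0.0199). The call rested on PTZ-2 and Q808-2, and without them the difference was 1.35 and 0.95. Within the 5 libraries, where Q808-2 is the only Q808 library, it was 2.67 (limma adjusted p = 0.0150, from 0.0150 to 1 over all alternatives), and within the 3 it was 0.25. PTZ against Con. gave -0.67 (95% CI -1.52 to 0.19, limma unadjusted p = 0.107), with opposite signs within the sets: -1.26 within the 5 (limma adjusted p = 0.0499, up to 1.00 over the alternatives) and 0.52 within the 3. It was called without Con.-3 (-0.91) and without PTZ-3 (-1.02). Q808 against Con. gave 0.97 (95% CI -0.28 to 2.21) and was called at 1.66 without Q808-1 and at 1.41 within the 5 libraries (limma unadjusted p = 0.00075, Q808-2 alone against Con.), with 0.77 within the 3. Exact two-sided permutation tests gave p = 0.2, 0.2 and 0.4 in the order given here, with 0.2, 0.1 and 0.2 the smallest p possible.

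Marker transcripts of cells known to make *Ptgds* also differed between libraries. The 9 choroid plexus markers summed to 2552, 2527 and 92.8 FPKM in Con.-1 to Con.-3, 411, 279 and 496 in PTZ-1 to PTZ-3, and 165 and 6490 in Q808-1 and Q808-2, with *Otx2* at 0 in every library and *Ttr* making up most of each sum. The 9 markers of meningeal fibroblasts, 1 of them at 0 in some library, summed to 7.54 to 29.1, 20.5 to 36.7 and 18.0 and 68.2. Both sums were highest in Q808-2, as was *Ptgds*, while the 8 oligodendrocyte markers were highest in Q808-1, at 13758. Not every meningeal marker followed its sum. *Col1a2* was highest in Con.-1, *Ogn* in Q808-1 and *Foxc1* in PTZ-3, and the other meningeal markers were highest in Q808-2. The study's methods state that the meninges were removed. The part of these tissues in the *Ptgds* result was not tested.

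**Figure D3:**
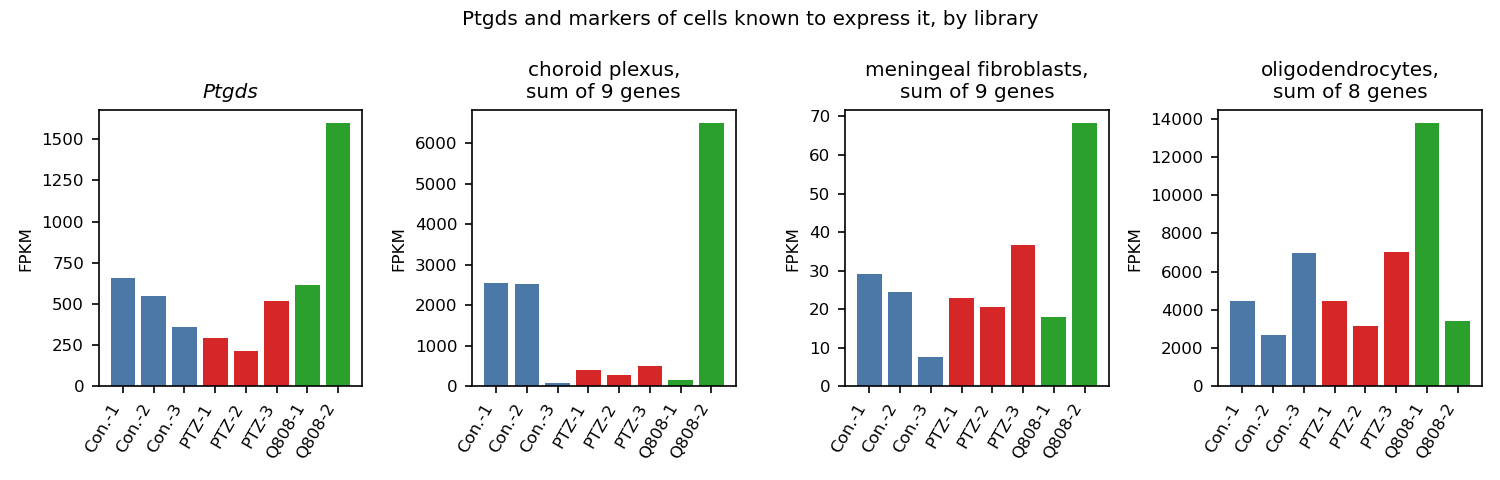
FPKM (y axis, from 0) of *Ptgds* and summed FPKM of the markers of choroid plexus, meningeal fibroblasts and oligodendrocytes in each of the 8 libraries (x axis), with bars coloured by group (blue Con., red PTZ, green Q808). Q808-2 was highest for *Ptgds* (1595), choroid plexus (6490) and meningeal fibroblasts (68.2), and Q808-1 for oligodendrocytes (13758).

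Activity-induced genes of neurons were compared with the 8 genes library by library. Their 10 transcripts, none at 0, summed to 129, 150 and 420 FPKM in Con.-1 to Con.-3, 573, 1290 and 173 in PTZ-1 to PTZ-3, and 271 and 240 in Q808-1 and Q808-2. PTZ-1 and PTZ-2 were highest here, as for *Ptgs2* and *Pla2g4a*, but Con.-3 was high in this sum and low in *Ptgs2*. The sums did not stand for each gene. PTZ-2 was the highest library for 9 of the 10 genes, but PTZ-1 was among the 2 highest for 5 of them (*Fos*, *Fosb*, *Egr4*, *Arc* and *Nr4a3*), and Con.-3 exceeded PTZ-1 for the other 5. *Arc*, at 246 FPKM in PTZ-1, made up much of the sum there, while *Egr1* was at 81.6 in PTZ-1 and 148 in Con.-3. *Fosb*, a transcription factor gene induced by seizures, was at 58.3 and 265 FPKM in PTZ-1 and PTZ-2 and at 5.21 in PTZ-3. The part of acute activity after the last PTZ injection in these results was not tested.

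**Figure D4:**
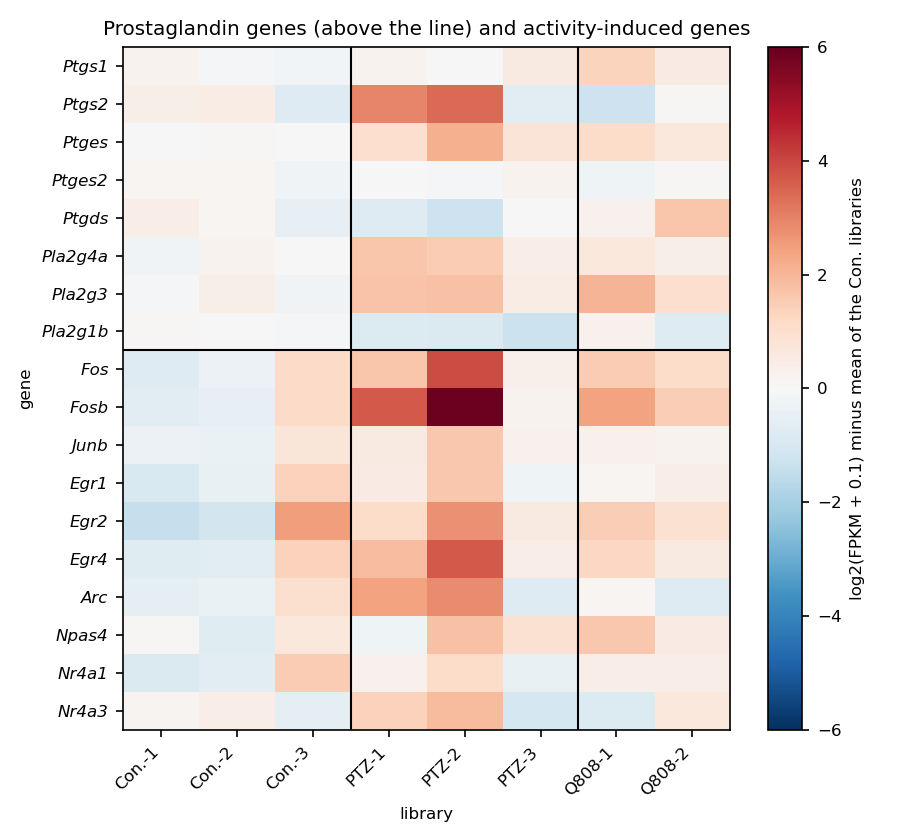
Level of the 8 genes (above the horizontal line) and of 10 activity-induced genes (below it) in each library (x axis), as log2(FPKM + 0.1) minus the mean of the Con. libraries (colour, red higher and blue lower, vertical lines between groups). *Ptgs2* and *Fosb* were highest in PTZ-2, at 114 and 265 FPKM, and near the Con. level in PTZ-3, at 6.80 and 5.21.

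The genes whose pattern was most like each of the 8 were taken by Pearson's r of log2(FPKM + 0.1) over the 8 libraries among 12343 genes. These are descriptions, since the points share the groups and the libraries with high striatum markers. For *Ptgs2* they were *Cemip* (r = 0.987, Spearman's rho = 0.881), *Pcdh8* (0.987, rho = 0.929) and *Bdnf* (0.980, rho = 0.952). *Bdnf*, an activity-regulated neurotrophin gene, was at 41.7 and 95.8 FPKM in PTZ-1 and PTZ-2 and at 1.31 to 7.53 in the other 6 libraries. For *Pla2g4a* they were *Socs3* (r = 0.982), *Vhl* (0.968) and *Shisa8* (0.966), for *Pla2g3* *Tmem100* (0.970), *Nfkbia* (0.963) and *Tinagl1* (0.963), and for *Pla2g1b* *Srrm3* (0.936), *Bbs12* (0.924) and *Mtarc1* (0.903). *Ptgds* was most like *Mmp14* (0.991), *Enpp2* (0.989) and *Slc6a13* (0.976), of which *Slc6a13* was also among the meningeal markers. *Ptges* was most like *H6pd* (0.974), *Mafk* (0.972) and *Oxnad1* (0.972), *Ptgs1* like *Slc27a1* (0.986), *Cib1* (0.984) and *Dzip1* (0.977), and *Ptges2* like *Ube2e3* (0.983), *Vdac3* (0.982) and *Psmb6* (0.974). Of all pairs among the 8 genes, those with the highest r over the 8 libraries were *Ptges* with *Pla2g3* (0.84) and *Pla2g4a* with *Ptges* (0.83). *Pla2g4a* with *Pla2g3* (0.82) and *Ptgs2* with *Pla2g4a* (0.80) came next, and *Ptgs2* with *Ptgds* was lowest (-0.59). Other pairs were weaker, with *Ptgs2* at 0.58 with *Ptges*, 0.43 with *Pla2g3* and -0.47 with *Ptgs1*.

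The rest of the pathway was given by 52 further genes, of which 43 passed the filter. The 9 that did not were *Pla2g4c*, *Pla2g2e*, *Pla2g2f*, *Pla2g10*, *Pla2g12b* and *Plb1* and the receptors *Ptger4*, *Ptgdr* and *Ptgir*. In PTZ against Con. 1 of 43 was called (2.53% of all tested genes), in Q808 against PTZ 0 of 43 (1.92%; limma, also 0 at an unadjusted p under 0.05) and in Q808 against Con. 2 of 43 (3.46%), all higher. The median log2 fold changes were 0.02, 0.27 and 0.39, beside -0.04, 0.10 and 0.04 over all tested genes. The groups did not overlap for 2, 10 and 9 of the 43, against 9.15%, 15.6% and 20% of all.

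These few calls were near the share over all tested genes. The called genes, *Alox15* and *Alox5ap*, belong to the lipoxygenase branch, which takes arachidonate to leukotrienes and hydroxy acids. *Alox15*, arachidonate 15-lipoxygenase, was at 0.284, 0.143 and 0.172 FPKM in Con.-1 to Con.-3, 0.655, 0.255 and 0.863 in PTZ-1 to PTZ-3, and 1.21 and 0.820 in Q808-1 and Q808-2. PTZ-2 lay within the Con. range, and both Q808 libraries lay above it. It rose by 1.12 on the log2 scale in PTZ against Con. (SE 0.47, limma unadjusted p = 0.0477, adjusted p = 0.999) and by 1.90 in Q808 against Con. (SE 0.39, limma unadjusted p = 0.0035, adjusted p = 0.901). The first call was lost without Con.-1 (1.31), Con.-2 (0.98), Con.-3 (1.06), PTZ-1 (0.99) or PTZ-3 (0.82), while the second was made with any single library left out, at 1.65 to 2.16. PTZ against Con. was 0.76 within the 5 libraries, not called, and 1.83 within the 3, and Q808 against Con. was 1.59, called, and 2.27.

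*Alox5ap*, which presents arachidonate to 5-lipoxygenase, was at 3.07, 2.46 and 1.97 FPKM in Con.-1 to Con.-3, 2.15, 3.65 and 2.98 in PTZ-1 to PTZ-3, and 5.97 and 3.54 in Q808-1 and Q808-2. Like *Ptgs1* it was highest in Q808-1, where the microglia markers were highest. It rose by 0.88 in Q808 against Con. (SE 0.33, limma unadjusted p = 0.0397, adjusted p = 0.901), and this was not called without Con.-2 (0.88), Con.-3 (0.72) or Q808-1 (0.51). It was 0.35 within the 5 libraries, where Q808-2 is the only Q808 library, not called, and 1.55 within the 3. The call was also lost with quantile normalization (0.76) and with all genes above 0 tested (0.88). With the replicate block it was lost too (0.72), but that block leaves out Con.-3 and so repeats the value without it.

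The most abundant gene of each pathway branch was called in no comparison. *Ptges3*, the cytosolic prostaglandin E synthase and Hsp90 cochaperone, averaged 115 FPKM over the 8 libraries, and *Mgll*, which releases arachidonate from 2-arachidonoylglycerol, 62.5. *Plaat3*, a phospholipase of the adipocyte type, averaged 38.8, *Ptgr2*, a prostaglandin reductase, 18.6, and *Lta4h*, leukotriene A4 hydrolase, 17.3. Receptors were low, with *Ptger3*, the EP3 receptor for prostaglandin E2, highest at 0.720.

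**Figure D5:**
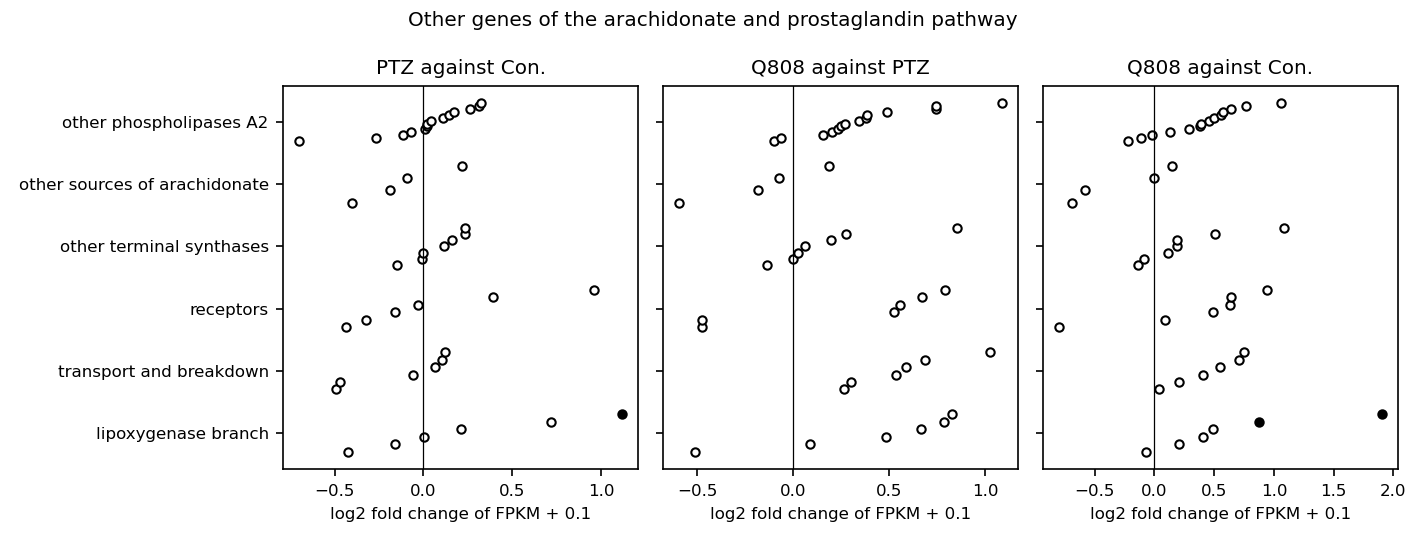
log2 fold change of FPKM + 0.1 (x axis, with its own range in each panel) of the 43 tested pathway genes, by branch (y axis), in the 3 comparisons. Each point is 1 gene, filled where called. The filled points are *Alox15* at 1.12 in PTZ against Con. and *Alox15* at 1.90 and *Alox5ap* at 0.88 in Q808 against Con.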

How the data were processed

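Libraries of hippocampal RNA, 1 per rat, came from 3 Con., 3 PTZ and 2 Q808 rats, grouped by their labels. The deposited FPKM were calculated by the authors with Cufflinks from reads trimmed by Trimmomatic. The submitters' processing notes also name HISAT2, Bowtie2, StringTie, SAMtools, HTSeq and DESeq. Genome build, versions and strand are not given in the sources used here. The study reports the amount of clean data per sample. The HTSeq counts were not used here, so the reads behind each value are unknown and precision rests on the spread between rats.

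Symbols came from RefSeq (GRCr8) by GeneID for 20633 of 22601 genes, and promoters from RefSeq. Genes averaging 0.1 FPKM or more (15593) were tested on log2(FPKM + 0.1), which understates changes of low genes, with limma 3.58.1 (empirical Bayes with a trend, R 4.3.3), each comparison on its own groups. Calls required an unadjusted p under 0.05 and a change above 1.5-fold. Benjamini-Hochberg adjustment ran over all tested genes. Single values were compared by exact permutation with scipy 1.17.1 in Python 3.11.15 (numpy 2.4.6, pandas 2.3.3, matplotlib 3.10.9). The limma script was checked on simulated data.

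All 8 genes were named whatever their values, and of the 52 other pathway genes those called and the most abundant of each branch. The genes, lists, library sets and alternatives were chosen with earlier results of these data known. In PTZ against Con., deviations from the group means of same-numbered libraries correlated over 12563 genes at 0.309, 0.392 and 0.472. The rats differ, and the last pair, Con.-3 and PTZ-3, shares high striatum markers. Deviations sum to 0 within a group, so this last pair also pushes the other pairs together. Differently numbered libraries were not compared. The correlations thus cannot show that the numbers pair the rats, and the replicate block serves as an alternative only. The alternatives were other pseudocounts (1 and 0.01), other filters (any value above 0, and a mean FPKM of at least 1) and quantile normalization. Further ones were all 3 groups in 1 fit, the replicate block, the library set as a term, the 5 libraries alone and each library left out. Unlike the main fits, those with the library set as a term and with the 5 libraries alone also held all 3 groups.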

Additional observations from a re-analysis of the deposited data

How the results depend on the processing

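Counts of calls moved with few libraries. Leaving out 1 library gave 2 to 6 calls among the 8 genes for PTZ against Con., 0 to 3 for Q808 against PTZ and 1 to 3 for Q808 against Con., and 249 to 1135, 132 to 1569 and 279 to 1799 among all genes (395, 300 and 540 with all libraries). Among the 52 other pathway genes it gave 0 to 2, 0 to 3 and 2 to 8. Of the fold changes of the 8 genes recomputed under all alternatives, 281 kept direction and side of the threshold, 28 lost and 20 gained a call, and 12 reversed. *Pla2g1b* has no value with a mean FPKM of at least 1.

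With the replicate block, calls among the 8 genes in Q808 against PTZ were 4, those in the pathway were 2 (PTZ against Con.) and 1 (Q808 against PTZ), all genes gave 616, 1894 and 1076, and *Pla2g3* in Q808 against PTZ reversed to -0.22. Same-numbered libraries correlated at -0.439 and 0.416 (Q808 against PTZ) and at -0.463 and 0.661 (Q808 against Con.), so there the libraries share only a number. In PTZ against Con. the block changed the call of *Ptgs2* and of no other of the 8 genes.

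With the library set as a term, calls in Q808 against PTZ were 2 among the 8 genes and 714 among all, and in PTZ against Con. 672 among all and 2 in the pathway. The 5 libraries alone gave 3 calls among the 8 genes in Q808 against PTZ, 1532 and 1625 among all genes for the first and second comparison, and 2, 2 and 4 in the pathway. They reversed *Ptges2* to -0.12 (PTZ against Con.) and 0.10 (Q808 against PTZ), and *Pla2g3* to -0.72 (Q808 against PTZ). Quantile normalization left 1 call among the 8 genes and 1 in the pathway in Q808 against Con. A pseudocount of 1 gave 219 and 340 calls among all genes in PTZ against Con. and Q808 against Con. Pseudocounts of 1 and 0.01 both gave 0 in the pathway in PTZ against Con. A mean FPKM of at least 1 gave 193 in Q808 against PTZ, and 0 and 1 in the pathway in PTZ against Con. and Q808 against Con. Testing all genes above 0 gave 2 and 1 in the pathway for the first and second comparison, and a fit of all 3 groups gave 2 in PTZ against Con.

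Leaving out 1 library reversed further signs. *Ptges2* ranged from -0.040 to 0.12 in PTZ against Con. (below 0 without Con.-3 or PTZ-3, the latter at -0.020), from -0.30 to 0.022 in Q808 against PTZ and from -0.24 to 0.083 in Q808 against Con., both above 0 without Q808-1. *Pla2g3* in Q808 against PTZ ranged from -0.29 (without Q808-1) to 0.72 and was -0.22 without PTZ-3. In Q808 against Con., *Ptgs2* ranged from -1.27 to 0.051 (without Q808-1) and *Pla2g1b* from -0.79 to 0.25 (without Q808-2). The cause was not tested.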
